A study of Mus musculus with 6 samples.

Results

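Progress from G1 into S phase, the step at which a cell commits to copying its DNA, was followed through 10 genes. They are the cyclins Ccnd1, Ccne1 and Ccne2, the E2F transcription factors E2f1, E2f2 and E2f8, the pocket protein gene Rb1, and the inhibitor genes Cdkn1b, Cdkn2a and Cdkn2b. The genes were taken by name from a table of 24454 mouse genes, and all 10 are in it. They were measured by RNA sequencing in MTflEcad cells. These are breast cancer cells of epithelial kind that come from an MMTV-Neu mouse, whose Neu (ERBB2) transgene is driven by the mouse mammary tumour virus promoter. The line I80 had received H2O2 daily for 7 months at 80 µM, the line DI150 had received it for the same time at 150 µM, and the control, PBS, is the same cells without H2O2. There are 2 libraries per line. Each H2O2 concentration is represented by 1 line, so concentration and line cannot be told apart.

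D-type cyclins bind CDK4 and CDK6 and start the phosphorylation of the Rb protein, which in its unphosphorylated form holds E2F factors inactive. Released activator E2Fs, among them E2F1 and E2F2, switch on genes of DNA replication and the cyclin E genes, and cyclin E with CDK2 phosphorylates Rb further. The inhibitors p27 (from Cdkn1b), p16INK4a (from Cdkn2a) and p15INK4b (from Cdkn2b) restrain these kinases. In the mouse mammary gland, cyclin D1 is known as a gene that Neu-driven tumours depend on.

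Of the 10 genes, 8 were detected in every library, and Cdkn2a and Cdkn2b had no read in any of the 6. Both treated lines held more Ccnd1, Ccne1 and Cdkn1b than PBS and less E2f2 and E2f8. E2f1 and Ccne2 were called lower in DI150 and not in I80. Rb1 was called lower in I80 and lay just short of the threshold in DI150 (limma adjusted p = 0.0553). Of 18 alternative analyses, 7 lost the DI150 call of Ccnd1. The calls of Ccne1 and Rb1 in I80 and of Ccne2 in DI150 were each lost in 2. The lines I80 and DI150 differed from each other in Ccnd1, Ccne1, Ccne2, E2f1 and E2f2.

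E2F factors bind short G/C-rich sites next to a run of T, and E2F genes are often targets of E2F proteins themselves. RefSeq (GRCm38.p6, the build also called mm10) gave windows of 300 bases, from 250 before to 50 after a transcript start, for 7 of the 10 genes, in 9 windows. Each window was searched on both strands for 4 forms of an E2F site of 8 letters, which read TTT, then CC, CG, GC or GG, then CGC. A form was present at the upstream start of E2f2 and at the upstream start of Cdkn2a, and in none of the other 7 windows. The E2f1 and E2f8 windows belong to starts inside those genes, and Ccnd1, Ccne2 and Rb1 had no window. The upstream starts of these genes were therefore not searched, and the absence of a form does not cover them. Among all 32851 windows of the table, 744 (2.26%) held one. The windows below are shown because they belong to the gene with the largest difference from PBS among the 10 and to a gene that gave no read while its neighbour Mtap was abundant. Capitals mark the E2F letters, which lie at positions 39 to 46 from the E2f2 start and -99 to -92 from the upstream Cdkn2a start. The first E2f2 window is chr4:136172024-136172323 on the plus strand. The Cdkn2a windows, both on the minus strand, are chr4:89294570-89294869, at the start that gives p19ARF, and chr4:89282143-89282442, at the start that gives p16INK4a.
E2f2: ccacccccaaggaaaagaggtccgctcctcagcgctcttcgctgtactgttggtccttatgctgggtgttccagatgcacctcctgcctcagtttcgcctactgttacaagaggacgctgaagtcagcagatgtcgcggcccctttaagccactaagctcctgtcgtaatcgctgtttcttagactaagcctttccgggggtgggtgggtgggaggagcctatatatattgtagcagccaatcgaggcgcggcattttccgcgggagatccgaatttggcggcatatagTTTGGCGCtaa
Cdkn2a, p19ARF start: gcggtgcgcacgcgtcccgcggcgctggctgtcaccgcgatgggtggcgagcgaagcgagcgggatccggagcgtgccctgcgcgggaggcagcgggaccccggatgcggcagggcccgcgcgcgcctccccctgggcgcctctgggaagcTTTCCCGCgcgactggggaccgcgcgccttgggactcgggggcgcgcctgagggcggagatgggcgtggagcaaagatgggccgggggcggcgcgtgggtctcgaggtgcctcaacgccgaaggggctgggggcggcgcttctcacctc
Cdkn2a, p16INK4a start: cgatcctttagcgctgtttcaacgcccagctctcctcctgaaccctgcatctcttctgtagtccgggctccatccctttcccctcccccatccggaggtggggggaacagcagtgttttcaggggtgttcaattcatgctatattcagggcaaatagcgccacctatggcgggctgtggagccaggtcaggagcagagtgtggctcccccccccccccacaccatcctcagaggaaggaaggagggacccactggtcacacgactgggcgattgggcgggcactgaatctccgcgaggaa
The Cdkn2a windows differ in composition, with 45 CpG pairs at the p19ARF start and 12 at the p16INK4a start. A match of letters describes the window and does not show that a factor was bound.

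Levels are given in CPM, a gene's reads out of every 1000000 that were assigned. The libraries held 21017849 to 26608715 assigned reads, and the smallest count of a detected gene was 319 reads, for E2f2 in I80. Differences were tested by limma on log2(CPM + 0.5) over the 11428 genes that averaged 1 CPM or more, with p-values adjusted over all of them by the Benjamini-Hochberg method and a call at an adjusted p under 0.05. All 8 detected genes passed this filter. Differences between the lines were common across the whole table: 66.4% of tested genes were called for I80 against PBS, 68.7% for DI150 against PBS and 43.8% for DI150 against I80. In bulk RNA, fewer cells of a kind and less RNA per cell cannot be told apart. Of 5 epithelial markers, 4 were lower than in PBS in both treated lines: the summed level of the 5 was 2744 to 3098 CPM in treated libraries and 5933 to 5980 CPM in PBS, with Krt19 at 0 in treated libraries. The fifth, Epcam, was 1.74-fold higher in DI150 than in PBS (limma adjusted p = 0.000115) and not called in I80. Macrophage markers summed to at most 2.14 CPM in treated libraries and to 9.77 and 17.2 CPM in PBS. Csf1r alone made up 7.67 and 14.5 CPM of the PBS sums and was at 0 in treated libraries. Cd68 averaged 1.89 CPM in I80, 1.63 CPM in DI150 and 2.13 CPM in PBS and was not called. Ptprc stayed at 0.263 CPM or less, Lyz2 was at 0 in PBS and Adgre1 at 0 in every library. Summed fibroblast markers lay between 21.8 and 23.99 CPM in every library, with Pdgfrb at 0 in every library and Col1a2 at 0 in treated ones. Within that sum Col1a1 was 4.22-fold higher than in PBS in I80 and 1.77-fold in DI150, and Pdgfra 2.81-fold and 3.54-fold, all called. Endothelial markers were at most 0.283 CPM, with Kdr at 0. The part of these shifts in the results was not tested.

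Against PBS, I80 had 3 of the 8 tested genes higher (Ccnd1, Ccne1, Cdkn1b), 3 lower (E2f2, E2f8, Rb1) and 2 not called (E2f1, Ccne2). The corresponding background among all tested genes was 32.3% higher and 34.2% lower, so the share called, 6 of 8, is close to that of the table. DI150 had 3 higher (Ccnd1, Ccne1, Cdkn1b), 4 lower (Ccne2, E2f1, E2f2, E2f8) and Rb1 not called, against a background of 32.7% higher and 36.1% lower. The median log2 fold change of the 8 was 0.009 for I80 and -0.45 for DI150, against medians of -0.002 and -0.032 over all tested genes. Libraries did not overlap between line and PBS for 6 of the 8 genes in I80 and all 8 in DI150, against 83.7% and 83.5% of all tested genes. The comparisons against PBS share the PBS libraries.

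**Figure D1:**
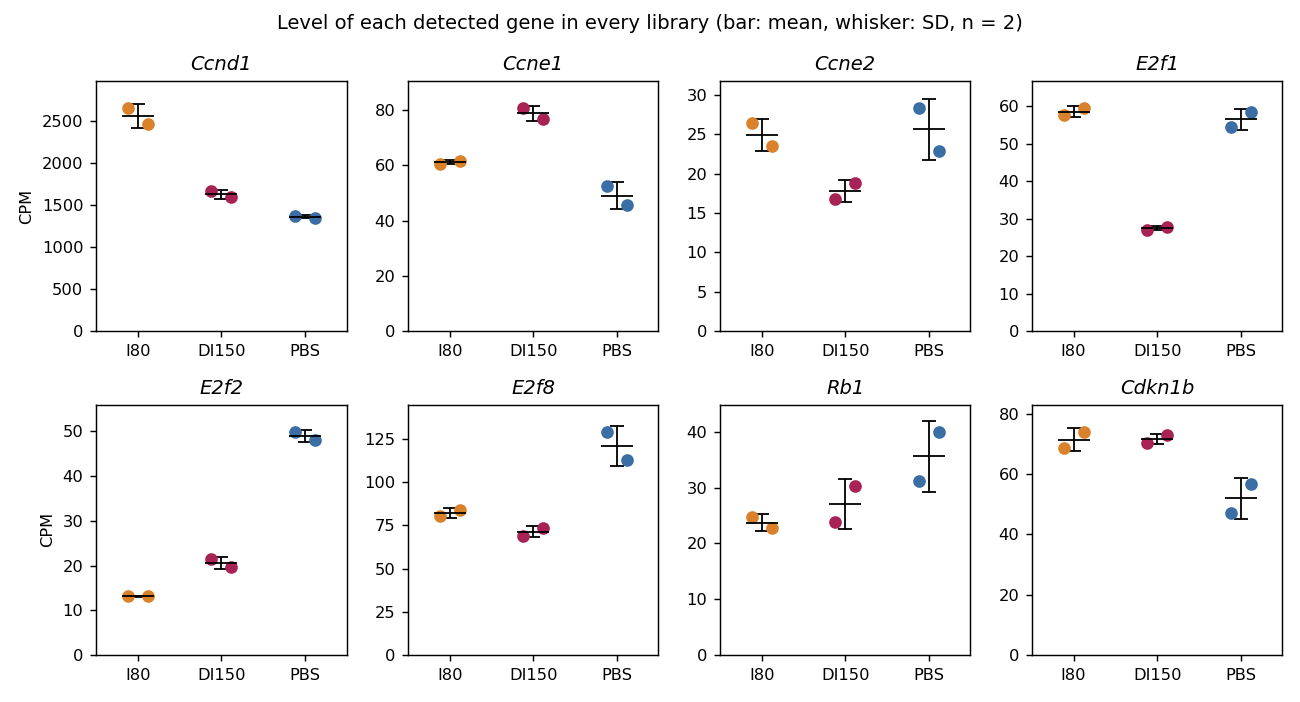
Level in CPM (vertical axes, each from 0) of the 8 detected genes in I80, DI150 and PBS. Points are libraries, bars are means and whiskers are SD (n = 2); Ccnd1 is highest in I80 at 2655 and 2457 CPM, E2f2 is lowest in I80 at 13.1 CPM in both libraries, and E2f1 is lowest in DI150 at 27.02 and 27.9 CPM.

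Ccnd1 encodes cyclin D1, the partner of CDK4 and CDK6, and lies on chromosome 7 (chr7:144929931-144939831, minus strand). It had 2655 and 2457 CPM in the I80 libraries, 1666 and 1592 CPM in the DI150 libraries and 1373 and 1347 CPM in the PBS libraries. All I80 values lay above all DI150 values, and these above both PBS values, with no overlap. The mean in I80, 2556 ± 139.7 CPM, was 1.88-fold that in PBS, 1360 ± 18.2 CPM (SD, n = 2 each; log2 fold change 0.91 with an SE of 0.083, adjusted p = 4.61e-05 by limma). In DI150 the mean was 1629 ± 52.1 CPM (SD, n = 2), 1.20-fold that in PBS (log2 fold change 0.26 with an SE of 0.083, adjusted p = 0.024 by limma). That smaller call did not hold when any 1 of 4 libraries was left out. The log2 fold change was 0.26 without either I80 replicate, 0.23 without DI150 replicate 1 and 0.25 without PBS replicate 2. The call was also lost with the 4 libraries compared alone (limma adjusted p = 0.0526) or without the filter on low genes (0.0675). It was lost with the replicate number as a block, where DI150 replicate 3, alone under its number, dropped out (log2 fold change 0.26). With DI150 replicate 3 put in the block of the second libraries, it held (limma adjusted p = 0.0433).

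Per kilobase of exon, Ccnd1 was the most abundant of the 10 genes in all 3 lines, at 542.7 CPM per kb in I80, 345.9 in DI150 and 288.9 in PBS. Of its 4709 exonic bases, 1100 (23.4%) overlap exons of LTO1 on the opposite strand, and whether counting used strand is not given in the sources used here. LTO1 itself was not called in any comparison. The 3 tested genes whose centred log2 levels over the 6 libraries lay nearest to those of Ccnd1 were Btbd19, Clcn5 and Cggbp1, at Euclidean distances of 0.142, 0.144 and 0.152.

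Ccne1 and Ccne2 encode the E cyclins, which activate CDK2 at the entry into S phase. Ccne1 (chr7:38097984-38107490, minus strand) had 60.6 and 61.7 CPM in I80, 80.8 and 76.8 CPM in DI150 and 52.4 and 45.7 CPM in PBS. Here DI150 was the highest line and PBS the lowest, with no overlap between lines. The mean of 78.8 ± 2.84 CPM in DI150 was 1.61-fold the PBS mean of 49.0 ± 4.79 CPM (SD, n = 2 each; log2 fold change 0.68 with an SE of 0.086, adjusted p = 0.000251 by limma). The mean of 61.1 ± 0.813 CPM in I80 (SD, n = 2) was 1.25-fold the PBS mean (log2 fold change 0.32 with an SE of 0.086, adjusted p = 0.0123 by limma). The I80 call was lost without I80 replicate 1 (adjusted p = 0.0616) or without I80 replicate 2 (adjusted p = 0.0792).

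Ccne2 (chr4:11190433-11204779, plus strand) had 26.4 and 23.5 CPM in I80, 16.8 and 18.8 CPM in DI150 and 28.4 and 22.9 CPM in PBS. The DI150 values lay below all others, and the I80 values lay within the range of PBS. DI150 averaged 17.8 ± 1.39 CPM and PBS 25.7 ± 3.85 CPM (SD, n = 2 each), a fall of 0.51 on the log2 scale with an SE of 0.131 (limma adjusted p = 0.00978). The difference between I80 and PBS was -0.033 ± 0.131 SE on the log2 scale and was not called (limma adjusted p = 0.833). The DI150 call was lost without DI150 replicate 1 (adjusted p = 0.0699) or without PBS replicate 1 (adjusted p = 0.0566). Exons of Ccne2 and of Ints8, an Integrator subunit gene on the opposite strand, share 609 bases, 17.4% of the Ccne2 exons. Ints8 had 62.8 and 60.3 CPM in I80, 44.5 and 51.4 CPM in DI150 and 69.0 and 59.3 CPM in PBS, and was itself lower in DI150 than in PBS (log2 fold change -0.42, limma adjusted p = 0.00828), so the Ccne2 value is uncertain.

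In DI150, Ccne1 was called higher than in PBS and Ccne2 lower, with the Ccne2 value uncertain for the reasons above. Ratios of these genes carry the same limit. The ratio of Ccne1 to Ccne2 CPM was 2.29 and 2.63 in I80, 4.80 and 4.08 in DI150 and 1.85 and 1.99 in PBS. The DI150 libraries had the highest ratios and the PBS libraries the lowest, with no overlap.

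E2f1 and E2f2 encode activators of S phase genes. E2f1 (chr2:154559400-154569892, minus strand) had 57.6 and 59.5 CPM in I80, 27.02 and 27.9 CPM in DI150 and 54.5 and 58.5 CPM in PBS. Both DI150 libraries lay at about the same low level, while the ranges of I80 and PBS overlapped. The DI150 mean of 27.5 ± 0.615 CPM was 2.06-fold below the PBS mean of 56.5 ± 2.82 CPM (SD, n = 2 each; log2 fold change -1.03 with an SE of 0.078, adjusted p = 1.64e-05 by limma). For I80, with a mean of 58.5 ± 1.39 CPM (SD, n = 2), the log2 fold change was 0.051 ± 0.078 SE and was not called (limma adjusted p = 0.586). Both results, and the difference between the treated lines, were on the same side of the threshold under every alternative run.

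The nearest 5 tested genes on each side of E2f1 had a median log2 fold change of 0.064 for DI150 against PBS, and none of these 10 genes fell as far as E2f1. Its nearest genes in pattern over the 6 libraries were 1810030O07Rik, Emd, which encodes the nuclear envelope protein emerin, and Il13ra1, an interleukin receptor subunit gene, at distances of 0.125, 0.156 and 0.161. The starts behind the searched E2f1 and E2f8 windows lie inside the genes, and those windows are not shown.

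E2f2 (chr4:136172274-136196057, plus strand) had 13.1 and 13.1 CPM in I80, 21.6 and 19.6 CPM in DI150 and 49.98 and 48.1 CPM in PBS. PBS was the highest line and I80 the lowest, without overlap. I80 averaged 13.1 ± 0.0551 CPM and PBS 49.0 ± 1.35 CPM (SD, n = 2 each), which is 3.74-fold lower in I80 (log2 fold change -1.86 with an SE of 0.095, adjusted p = 2.07e-06 by limma). DI150 averaged 20.6 ± 1.40 CPM (SD, n = 2), 2.38-fold below PBS (log2 fold change -1.24, limma adjusted p = 1.69e-05). These calls held under every alternative run. E2f2 is the gene whose upstream window carries the E2F letters TTTGGCGC printed above.

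Neighbours of E2f2 on chromosome 4 were also lower: the 10 nearest tested genes had median log2 fold changes of -0.90 for I80 and -0.60 for DI150 against PBS. Of these 10 genes, 2 fell further than E2f2 in each comparison. The adjacent gene Id3, an inhibitor of helix-loop-helix factors, had 0.039 and 0.041 CPM in I80, 0.048 and 0.076 CPM in DI150 and 12.8 and 10.4 CPM in PBS. Whether the fall of E2f2 is tied to its region was not tested.

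E2f2 thus fell in both lines, and E2f1 was called lower in DI150 and not in I80. In CPM, E2f1 was 4.40 and 4.53 times E2f2 in the I80 libraries, 1.25 and 1.43 times in the DI150 libraries and 1.09 and 1.22 times in the PBS libraries. The I80 ratios stand well above the others. Per kilobase of exon, E2f1 stood at 18.6 CPM per kb in I80, 8.71 in DI150 and 17.9 in PBS, and E2f2 at 2.69, 4.21 and 10.0 in the same lines.

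E2f8 encodes an atypical E2F, a repressor that acts without a DP partner and is itself transcribed in S phase. It lies on chromosome 7 (chr7:48866429-48882073, minus strand) and had 80.3 and 84.2 CPM in I80, 69.1 and 73.8 CPM in DI150 and 129.4 and 112.7 CPM in PBS. All treated libraries lay below both PBS libraries. Means were 82.2 ± 2.74 CPM in I80, 71.4 ± 3.31 CPM in DI150 and 121.0 ± 11.8 CPM in PBS (SD, n = 2 each). The fall was 1.47-fold in I80 (log2 fold change -0.55 with an SE of 0.086, adjusted p = 0.000781 by limma) and 1.69-fold in DI150 (log2 fold change -0.75 with an SE of 0.086, adjusted p = 0.000141 by limma), and both calls held under every alternative run. Of the 5356 stretches of 81 bases, the read length, in E2f8 transcripts of GENCODE M21, 352 also occur in those of Gm2788.

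Rb1, which encodes the pocket protein that binds activator E2Fs, lies on chromosome 14 (chr14:73192858-73325951, minus strand). It had 24.8 and 22.7 CPM in I80, 23.9 and 30.3 CPM in DI150 and 31.2 and 40.1 CPM in PBS. Treated libraries lay below PBS libraries, by a narrow margin for the higher DI150 value. I80 averaged 23.7 ± 1.46 CPM and PBS 35.6 ± 6.31 CPM (SD, n = 2 each), a log2 fold change of -0.57 ± 0.154 SE (limma adjusted p = 0.0127). DI150, at 27.1 ± 4.50 CPM (SD, n = 2), had a log2 fold change of -0.39 ± 0.154 SE and was not called (limma adjusted p = 0.0553). The I80 call was lost without I80 replicate 2 (adjusted p = 0.0805) or without PBS replicate 2 (adjusted p = 0.0953).

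For DI150, Rb1 lay on either side of the threshold by method: edgeR's quasi-likelihood test on recovered reads gave an adjusted p of 0.0354, DESeq2 0.0422 and limma after median-of-ratios scaling 0.0413. It also passed without DI150 replicate 3 (adjusted p = 0.0352) and without PBS replicate 1 (adjusted p = 0.0337), whereas the log2 fold change shrank to -0.22 without DI150 replicate 1 (adjusted p = 0.314) and to -0.21 without PBS replicate 2 (adjusted p = 0.31). Lpar6, a receptor gene on the opposite strand, overlaps 408 of the 6015 exonic bases of Rb1 (6.78%). Of the 5849 stretches of 81 bases in Rb1 transcripts of GENCODE M21, 583 also occur in those of Lpar6 or Rcbtb2. Lpar6 moved the other way, with 29.5 and 25.7 CPM in I80, 17.9 and 21.9 CPM in DI150 and 11.95 and 14.96 CPM in PBS.

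Cdkn1b encodes p27, an inhibitor of cyclin E with CDK2 that also helps assemble cyclin D with its kinases. On chromosome 6 (chr6:134920401-134925525, plus strand), it had 68.6 and 74.0 CPM in I80, 70.4 and 72.8 CPM in DI150 and 46.9 and 56.7 CPM in PBS. The treated lines overlapped each other and lay above both PBS libraries. Means were 71.3 ± 3.87 CPM in I80, 71.6 ± 1.75 CPM in DI150 and 51.8 ± 6.93 CPM in PBS (SD, n = 2 each), 1.38-fold higher in each treated line than in PBS. The log2 fold changes were 0.46 ± 0.101 SE in I80 (limma adjusted p = 0.00457) and 0.47 ± 0.101 SE in DI150 (limma adjusted p = 0.00407), called under every alternative run. The adjacent noncoding gene Lockd, downstream of Cdkn1b, moved the other way (log2 fold change -0.71 in I80, limma adjusted p = 0.00572, and -0.76 in DI150, limma adjusted p = 0.00395).

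Cdkn2a (chr4:89274473-89294619) and Cdkn2b (chr4:89306289-89311032) lie side by side on the minus strand of chromosome 4. Cdkn2a encodes p16INK4a, an inhibitor of CDK4 and CDK6, and, from its upstream start and another reading frame, p19ARF, which restrains Mdm2. Cdkn2b encodes p15INK4b, a further inhibitor of those kinases. Both genes had 0 reads in every I80, DI150 and PBS library, a count that allows up to 3 reads per library, or 0.113 to 0.143 CPM. Neither was tested, and a gene-level count does not separate p16INK4a from p19ARF. In transcripts of GENCODE M21, all stretches of 81 bases, the read length, were found in no other gene for either one.

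The region around them was sparsely read but not empty. In this paragraph the start of a gene is its lowest coordinate on the chromosome, whatever its strand, and not a transcript start. Of the 43 genes of the table within 1000 kb of the Cdkn2a start, 28, among them most of the interferon alpha cluster, had no read in any library, and 5 had a mean of at least 1 CPM. Mtap, a methionine salvage enzyme gene whose start lies at -137.1 kb from that of Cdkn2a, had 959.3 and 913.7 CPM in I80, 415.9 and 417.1 CPM in DI150 and 475.5 and 446.9 CPM in PBS. It was higher in I80 than in PBS (log2 fold change 1.02, limma adjusted p = 8.71e-06) and not called in DI150 (log2 fold change -0.15, limma adjusted p = 0.0888). Gm12610, which overlaps Cdkn2b, had 5 reads over all 6 libraries, and Dmrta1, on the far side, had 0. Wincr1, between Mtap and the interferon genes, had 1.25 and 0.577 CPM in I80, 0.285 and 0.305 CPM in DI150 and 13.3 and 11.1 CPM in PBS. The absence of both genes' reads was shared by PBS, and whether the locus is intact in these cells was not tested.

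**Figure D2:**
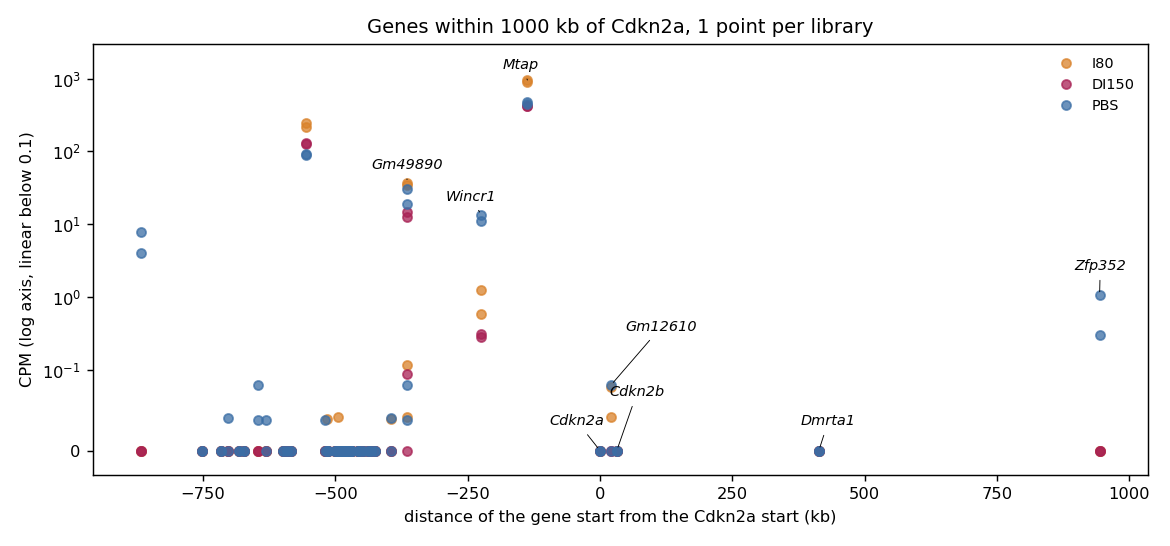
Level in CPM (vertical log axis, linear below 0.1) of each gene within 1000 kb of Cdkn2a, with 1 point per library coloured by line. The horizontal axis is the distance in kb between gene starts, taken as the lowest coordinates whatever the strand. Mtap stands at 415.9 CPM or more in every library, while Cdkn2a, Cdkn2b and Dmrta1 are at 0 in all 6.

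Between the treated lines, DI150 had 2 of the 8 genes higher than I80 (Ccne1, E2f2), 3 lower (Ccnd1, Ccne2, E2f1) and 3 not called (E2f8, Rb1, Cdkn1b), against a background of 21.9% higher and 21.9% lower. Libraries did not overlap for 6 of the 8, against 78.5% of all tested genes. E2f1 was 2.13-fold lower in DI150 (log2 fold change -1.08, limma adjusted p = 8.07e-05) and Ccnd1 1.57-fold lower (log2 fold change -0.65, limma adjusted p = 0.000885). E2f2 was 1.57-fold higher in DI150 (log2 fold change 0.63, limma adjusted p = 0.00178). Ccne1 was 1.29-fold higher (log2 fold change 0.36, limma adjusted p = 0.0122) and Ccne2 1.40-fold lower (log2 fold change -0.47, limma adjusted p = 0.0226). The E cyclin differences each lost their call when single libraries were left out. For Ccne1 this happened without either I80 library or DI150 replicate 1 (log2 fold change 0.33 to 0.38). The Ccne1 call was also lost with the replicate number as a block, which drops DI150 replicate 3 (0.36). It held with that library in the block of the second libraries (limma adjusted p = 0.0142). For Ccne2 the call was lost without any 1 of the 4 libraries compared (log2 fold change -0.56 to -0.39).

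E2f8 differed by -0.20 on the log2 scale between DI150 and I80 (limma adjusted p = 0.0927), with libraries that did not overlap. It passed the threshold with only the 4 libraries compared in the fit (limma adjusted p = 0.0371). It also passed without either PBS library, though these are not in this comparison. Without any 1 of the 4 libraries compared, the adjusted p was 0.138 to 0.352. For Cdkn1b the difference was 0.0072 ± 0.101 SE and for Rb1 0.18, neither called (limma adjusted p = 0.966 and 0.38). Leaving out single libraries moved the Rb1 value between 0.012 (without DI150 replicate 3) and 0.35 (without DI150 replicate 1).

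**Figure D3:**
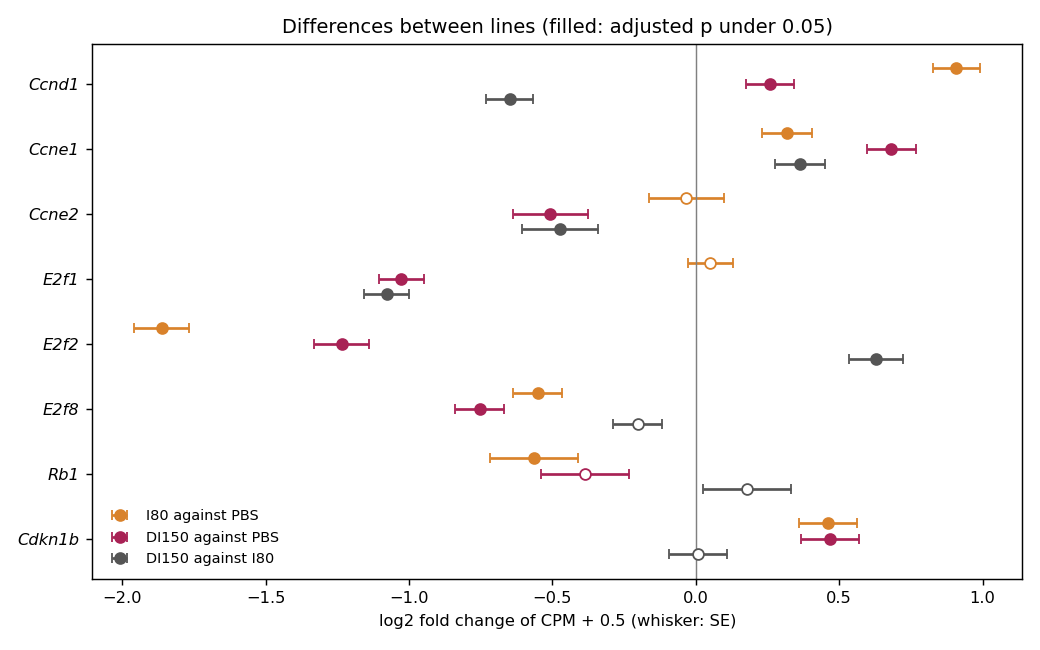
Log2 fold change of CPM + 0.5 (horizontal axis, whiskers SE) of the 8 tested genes in 3 comparisons: I80 against PBS, DI150 against PBS, and the treated lines against each other as DI150 against I80. Filled points have a limma adjusted p under 0.05; E2f1 differs in both DI150 comparisons (-1.03 and -1.08) and not in I80 (0.051), while E2f2 is below PBS in both lines (-1.86 and -1.24).

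Other genes of the same machinery were read from lists of its kinases, E2F and DP partners, inhibitors and targets. Among 11 other G1 cyclins and kinases, 9 were tested and Ccna1 and Ccnd2 had no read in any library. In I80, 3 were higher and 3 lower (median log2 fold change 0.12), and in DI150, 5 were higher and 3 lower (median 0.28). The background for this and the next lists was 32.3% higher and 34.2% lower in I80. In DI150 it was 32.7% higher and 36.1% lower. Cdk6, the kinase partner of the D cyclins alongside Cdk4, had 41.3 and 36.2 CPM in I80, 71.8 and 72.4 CPM in DI150 and 159.8 and 135.5 CPM in PBS (log2 fold change -1.91 in I80, limma adjusted p = 2.55e-06, and -1.02 in DI150, limma adjusted p = 6.54e-05). Cdk4 went the other way, with 586.9 and 587.7 CPM in I80, 567.5 and 546.1 CPM in DI150 and 415.8 and 375.1 CPM in PBS (log2 fold change 0.57, limma adjusted p = 0.000277, and 0.49, limma adjusted p = 0.000574). The partner kinases of cyclin D1 thus moved in opposite directions in both lines.

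Cdk2, the kinase of the E cyclins, had 77.3 and 78.9 CPM in I80, 115.8 and 111.4 CPM in DI150 and 74.7 and 69.3 CPM in PBS. It was higher in DI150 than in PBS (log2 fold change 0.66, limma adjusted p = 0.000102), as Ccne1 was, and not called in I80 (limma adjusted p = 0.169). Ccna2, the S phase cyclin, fell in both lines (log2 fold change -0.41 in I80, limma adjusted p = 0.00356, and -0.61 in DI150, limma adjusted p = 0.000456). Cdk7 and Mnat1, which encode subunits of the kinase that activates CDKs, rose in both, by 0.61 and 0.57 in I80 and by 0.38 and 0.52 in DI150 on the log2 scale.

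Among 7 other E2F and DP genes, 1 was higher and 3 lower in I80 (median log2 fold change -0.1), and 2 were higher and 3 lower in DI150 (median 0.097). E2f6, a repressor that works without Rb, had 78.6 and 77.2 CPM in I80, 126.1 and 127.2 CPM in DI150 and 45.3 and 39.9 CPM in PBS, higher in both lines (log2 fold change 0.87, limma adjusted p = 4.77e-05, and 1.56, limma adjusted p = 1.93e-06). Tfdp1, the main DP partner that E2F1 and E2F2 need to bind DNA, had 112.8 and 114.5 CPM in I80, 117.4 and 119.4 CPM in DI150 and 260.4 and 223.2 CPM in PBS, lower in both (log2 fold change -1.08, limma adjusted p = 1.8e-05, and -1.02, limma adjusted p = 2.23e-05). Tfdp2, the other DP gene, was also lower in both (-0.53 in I80, limma adjusted p = 0.00292, and -0.90 in DI150, limma adjusted p = 0.000172). E2f4, which acts with pocket proteins to repress, was lower in both (-0.44 in I80, limma adjusted p = 0.00629, and -0.54 in DI150, limma adjusted p = 0.00205), and the I80 call was lost without I80 replicate 1 (adjusted p = 0.0557) and its value shrank to -0.29 without PBS replicate 1. E2f5, a relative of E2f4, was higher in DI150 (0.47, limma adjusted p = 0.00483) and not called in I80 (-0.1, limma adjusted p = 0.427). The activator E2f3 and the atypical E2f7 were not called in either line; E2f3 in DI150 passed without DI150 replicate 1 (adjusted p = 0.0191) and by edgeR (adjusted p = 0.0425), and E2f7 passed without PBS replicate 1 in I80 (adjusted p = 0.0158) and in DI150 (adjusted p = 0.0244).

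Among 6 other pocket protein and inhibitor genes, 5 were tested and Cdkn1c had no read. In each treated line 2 were higher and 1 lower (median log2 fold change 0.14 in I80 and 0.18 in DI150). Cdkn1a, which encodes p21, had 339.4 and 284.4 CPM in I80, 365.3 and 307.0 CPM in DI150 and 112.6 and 211.9 CPM in PBS, higher in both lines (log2 fold change 1.005 in I80, limma adjusted p = 0.00982, and 1.11 in DI150, limma adjusted p = 0.00589). The PBS libraries differed widely in it, and the I80 call was lost without I80 replicate 1 (adjusted p = 0.0643). Without PBS replicate 1 the Cdkn1a log2 fold changes were 0.55 in I80 and 0.66 in DI150. Cdkn2c, the INK4 relative p18, had 47.1 and 48.5 CPM in I80, 76.8 and 80.4 CPM in DI150 and 42.9 and 43.5 CPM in PBS, higher in DI150 (log2 fold change 0.86, limma adjusted p = 2.68e-05) and not called in I80 (limma adjusted p = 0.11). Of the pocket proteins, Rbl2 (p130) was lower in both lines (-0.99 in I80, limma adjusted p = 0.000622, and -0.57 in DI150, limma adjusted p = 0.0099), its DI150 call lost without DI150 replicate 1 (adjusted p = 0.0725) and its DI150 value at -0.35 without PBS replicate 2. Rbl1 (p107) was higher in I80 (0.45, limma adjusted p = 0.00173) and not called in DI150 (limma adjusted p = 0.0856), where it passed without PBS replicate 1 (adjusted p = 0.0377). Cdkn2d was not called in either line.

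Of 25 E2F target genes of S phase, all tested, 13 were lower and 4 higher in I80 (median log2 fold change -0.34), and 20 were lower and none higher in DI150 (median -0.52). In the whole table, 34.2% of tested genes were lower in I80 and 36.1% in DI150, by the same call. For DI150 against I80, 9 of the 25 were lower and 1 higher, with 21.9% of all tested genes called each way. Mcm6, a subunit of the replicative helicase, had 235.4 and 246.7 CPM in I80, 193.3 and 217.0 CPM in DI150 and 649.0 and 543.0 CPM in PBS (log2 fold change -1.30, limma adjusted p = 1.87e-05, and -1.53, limma adjusted p = 7.07e-06). Gins2, of the GINS complex of the same helicase, fell by 1.22 in I80 (limma adjusted p = 1.83e-05) and by 1.15 in DI150 (limma adjusted p = 2.24e-05) on the log2 scale. Orc1, of the origin recognition complex, and Rfc4, of the clamp loader, were higher in I80 (log2 fold change 0.51, limma adjusted p = 0.003, and 0.55, limma adjusted p = 0.0019). Both were lower in DI150 (-0.35, limma adjusted p = 0.017, and -0.29, limma adjusted p = 0.0318), calls that were lost without any 1 of DI150 replicate 1, DI150 replicate 3 and PBS replicate 1 (adjusted p 0.0561 to 0.162). The Rfc4 call in DI150 was also lost without either I80 library (adjusted p 0.0654 and 0.0655), and its value was -0.17 without PBS replicate 1.

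Of the 20 of these target genes with a RefSeq window, 9 held an E2F form, against 704 of the 27025 genes in the window table (2.6%). The list was made of genes known as E2F targets, so this share says nothing about the levels measured here. Of the proliferation markers, Mki67 had 1060 and 1182 CPM in I80, 683.7 and 948.0 CPM in DI150 and 848.3 and 880.6 CPM in PBS and was not called against PBS in either line (limma adjusted p = 0.0519 and 0.55). Top2a was lower in both (log2 fold change -0.62, limma adjusted p = 0.000181, and -0.79, limma adjusted p = 4.52e-05). Between the treated lines, Mki67 was lower in DI150 than in I80 (log2 fold change -0.48, limma adjusted p = 0.032). Top2a was not called there (-0.18, limma adjusted p = 0.0869). The part that the share of cycling cells had in the members' values was not tested.

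**Figure D4:**
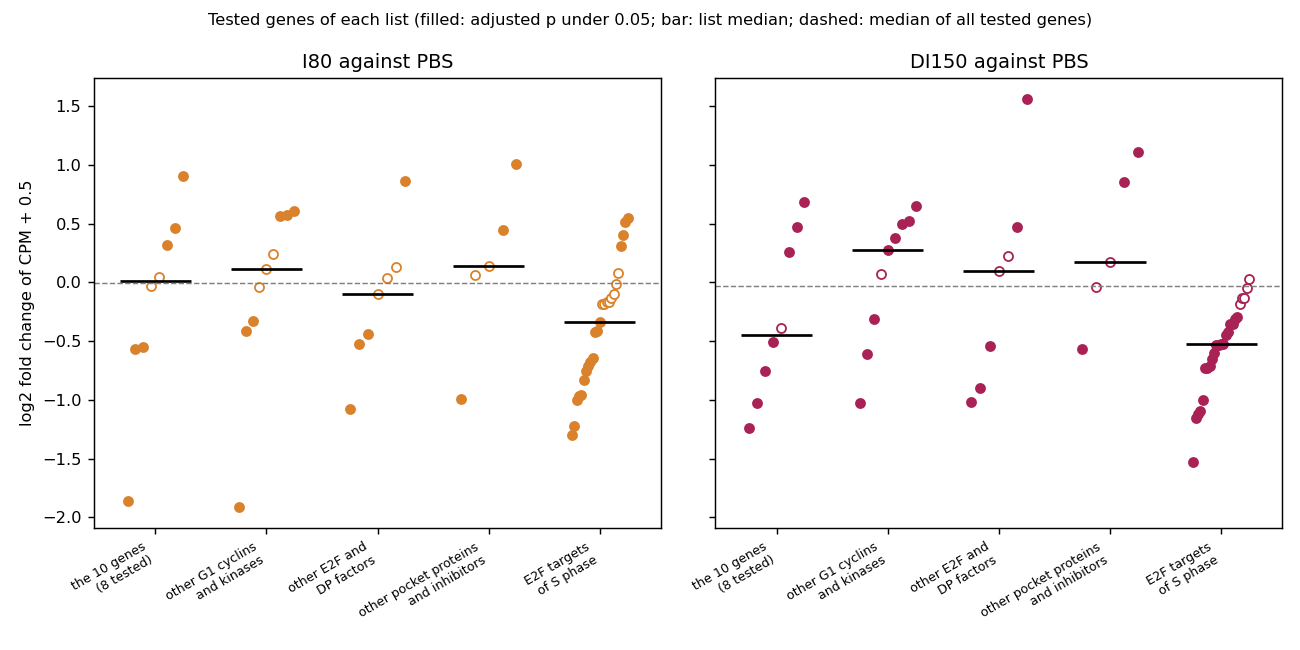
Log2 fold change of CPM + 0.5 against PBS (vertical axis) of each tested gene of 5 lists, for I80 in the left panel and DI150 in the right. Filled points have a limma adjusted p under 0.05, black bars are list medians and the dashed line is the median of all 11428 tested genes; the E2F targets of S phase have medians of -0.34 and -0.52.

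Genes that act on the turnover of the cyclins and p27 were mixed. Of 15 tested, 5 were higher and 6 lower in I80, and 6 higher and 6 lower in DI150. Over all tested genes, 32.3% were higher and 34.2% lower in I80, and 32.7% and 36.1% in DI150. Skp2, the substrate receptor that marks p27 for degradation, had 33.6 and 34.0 CPM in I80, 31.1 and 32.2 CPM in DI150 and 82.3 and 59.8 CPM in PBS (log2 fold change -1.04, limma adjusted p = 0.000353, and -1.14, limma adjusted p = 0.000212). Its cofactor Cks1b moved the other way, with 204.8 and 210.5 CPM in I80, 194.4 and 189.4 CPM in DI150 and 116.0 and 101.9 CPM in PBS (0.93, limma adjusted p = 2.72e-05, and 0.82, limma adjusted p = 5.15e-05). Fbxo4, a ubiquitin ligase receptor reported to act on cyclin D1, was lower in both lines, at 4.37 and 4.37 CPM in I80, 10.1 and 9.92 CPM in DI150 and 15.6 and 16.7 CPM in PBS. The log2 fold changes of Fbxo4 against PBS were -1.77 in I80 (limma adjusted p = 8.11e-06) and -0.66 in DI150 (limma adjusted p = 0.00145). A link between its level and that of Ccnd1 was not tested. Rbx1, a common subunit of these ligases, rose (0.32 in I80, limma adjusted p = 0.00461, and 0.67 in DI150, limma adjusted p = 9.46e-05), with the I80 call lost without I80 replicate 1 (adjusted p = 0.0524). The deubiquitinase gene Usp28 fell in both lines, by 1.36 in I80 and by 0.98 in DI150 on the log2 scale, and Ddb1, an adaptor of CUL4 ligases, rose by 0.47 in I80 and by 0.39 in DI150 (all called by limma).

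Of 20 upstream regulators, 8 were higher and 6 lower in I80, and 6 higher and 5 lower in DI150. The shares over all tested genes were 32.3% higher and 34.2% lower in I80, and 32.7% and 36.1% in DI150. Foxo3, a factor known to activate Cdkn1b, had 16.0 and 14.7 CPM in I80, 19.7 and 18.7 CPM in DI150 and 35.4 and 38.8 CPM in PBS and was lower in both (log2 fold change -1.25, limma adjusted p = 2.48e-05, and -0.93, limma adjusted p = 0.000107), whereas Cdkn1b was higher. The Polycomb genes Bmi1 and Cbx7, known repressors of Cdkn2a, were higher in both lines: Bmi1 by 0.77 in I80 and 0.43 in DI150, and Cbx7 by 0.50 in I80 and 1.20 in DI150 on the log2 scale (all called by limma). Cdkn2a itself was at 0 in PBS too, so it has no direction to set beside them. Junb, of the AP-1 family, fell by 1.97 in I80 (limma adjusted p = 4.96e-05) and by 1.63 in DI150 (limma adjusted p = 0.000126). Mdm2, the target of p19ARF, was higher in both (0.73 in I80, limma adjusted p = 0.0183, and 0.91 in DI150, limma adjusted p = 0.0065), and its I80 call was lost without either I80 library (adjusted p 0.0779 and 0.0684). Its PBS libraries lay far apart, at 79.6 and 139.2 CPM: without PBS replicate 1 the log2 fold changes were 0.33 in I80 and 0.51 in DI150, and without PBS replicate 2 they were 1.13 and 1.31.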

How the data were processed

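Total RNA was depleted of ribosomal RNA and sequenced as single 81-base reads from stranded libraries on a NextSeq 500, per the labels' protocols. The submitters' processing notes name STAR and mm10, neither with a version. Which gene counter and annotation were used, and whether strand was, is not given in the sources used here. CPM were deposited for 24454 gene numbers in 6 columns, each summing to 1000000. Dividing by the worth of 1 read gave whole reads, within 1e-06, for 100% of the 146724 deposited values, and these recovered reads gave the totals and the count tests.

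Columns were assigned to lines by their names. The labels give DI150 samples numbers 1 and 2 but a DI150 column bears a 3, so it was used as a DI150 library without a label number, called DI150 replicate 3. The labels do not say whether replicates were separate long-term cultures, so p-values cover only the spread between libraries, which may be technical. Gene numbers were matched to RefSeq GRCm38.p6 (24374 matched). GENCODE M21 gave strands, exon lengths, overlaps and transcript windows.

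limma 3.58.1 (R 4.3.3; lmFit, eBayes with trend) was fitted to log2(CPM + 0.5) of the 11428 genes averaging 1 CPM or more, all 3 lines together, leaving 3 residual degrees of freedom. Tests were two-sided. Fold changes on this scale understate changes of low genes, so folds are ratios of mean CPM. Alternatives were edgeR 4.0.16 and DESeq2 1.42.0 on recovered reads, other pseudocounts, filters and scalings, a replicate block, and each library left out in turn. The block was fitted with the replicate numbers as given and, unplanned, with DI150 replicate 3 as the second DI150 library. Floors of 3 reads per library cover counting error only. The members and lists were chosen with earlier results of these data known. Named genes are the members, all other E2F, DP, pocket protein and inhibitor genes, and the 2 called genes that rose most and the 2 that fell most per further list and treated line, each given in both lines. Genes near Cdkn2a, and genes beside or overlapping other members, were chosen after their values were seen.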

Additional observations from a re-analysis of the deposited data

Results flagged for a closer look

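The direct comparison of the treated lines, which tests whether their differences from PBS differ, called 5 of the 8 tested genes. E2f1 was 1.08 lower on the log2 scale in DI150 than in I80 (log2 fold change -1.08, limma adjusted p = 8.07e-05), lower in 2 of 2 DI150 libraries than in both I80 libraries. Ccnd1 had a log2 fold change of -0.65 (limma adjusted p = 0.000885) and E2f2 one of 0.63 (limma adjusted p = 0.00178), also without overlap between the lines. For Ccne1 the value was 0.36 (limma adjusted p = 0.0122) and for Ccne2 -0.47 (limma adjusted p = 0.0226). For E2f2 the fall against PBS was larger in I80, and for E2f1 and Ccne2 a fall was called in DI150 alone. In the whole table, 43.8% of tested genes were called in this comparison.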

How the results depend on the processing

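Across 18 alternatives, 14 of the 24 log2 fold changes of the tested members kept their direction and side of the threshold in all. Reversals were confined to differences that were not called: Ccne2 in I80 against PBS (0.069 with quantile normalization, 0.049 without I80 replicate 2, 0.12 without PBS replicate 1; -0.18 to 0.12 over single libraries left out) and Cdkn1b in DI150 against I80 (-0.048 without I80 replicate 1, -0.018 without DI150 replicate 3; -0.048 to 0.062 over single libraries left out). Among the 33 other genes tried, 46 of 56 calls against PBS held in all alternatives, and uncalled values turned for E2f5 in I80 (0.0068 with quantile normalization), E2f7 in DI150 (-0.035 without PBS replicate 2; up to 0.23), and Cdkn2d in DI150 (0.024 with quantile normalization, 0.11 with the replicate block, 0.040 without DI150 replicate 3, 0.11 without PBS replicate 2; down to -0.19) and in I80 (-0.084 without PBS replicate 1; up to 0.22). Scaling also ended the DI150 calls of Rfc4 (adjusted p = 0.073 with TMM) and Orc1 (0.0786 with quantile normalization). The causes were not tested.

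Samples share only a replicate number: the deviations of same-numbered libraries correlated at 0.0228 between I80 and PBS, -0.0551 between DI150 and PBS and 0.213 between DI150 and I80. With the replicate number as a block, DI150 against I80 gave 1361 genes higher (2503 without it), 1327 lower (2505) and 1 member higher (2). In that fit the DI150 calls of Ccnd1, E2f5, Ddb1, Bmi1, Rfc4 and Orc1 against PBS were lost. The call of Ccne1 in DI150 against I80 was lost too. All of these calls held with DI150 replicate 3 in the block of the second libraries. There the limma adjusted p was 0.0433 for Ccnd1 and 0.0142 for Ccne1.

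Leaving out single libraries gave, for DI150 against I80, 1295 to 3008 genes higher, 1187 to 2965 lower, 1 to 2 members higher and 2 to 4 lower. Counts fell by over 1.5 times without I80 replicate 1 (1295 and 1246), I80 replicate 2 (1300 and 1187), DI150 replicate 1 (1561 and 1451) and DI150 replicate 3 (1547 and 1662). For I80 against PBS, 2839 to 3796 genes were higher and 3139 to 3925 lower, with 2 to 3 members each way. For DI150 against PBS, 3021 to 3807 were higher and 3400 to 4099 lower, with 2 to 3 members higher and 3 to 5 lower. With 1 library left in a line, its spread is assumed to be that of the others. With 2 libraries per line, small differences could not be resolved.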
